A study of Mus musculus with 6 samples.

Results

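The 6 genes described here, Tspan32, R3hdml, Grik4, Celf5, Wfdc6a and 4833422C13Rik, were taken from 39179 genes counted in mouse osteosarcomas. They were chosen with the outcome in view, because a comparison of Cd44-/- with Cd44+/+ osteosarcomas gave them some of its smallest p-values with the lower level in Cd44-/-. Their genotype difference is therefore the selection itself and is given below as a description, tumor by tumor. Their gene families, their genomic neighbours, the genes that overlap or resemble them and their promoters are described after it. These parts are not independent of the selection. The lists were made with earlier results of these data known, and genes that overlap or resemble the 6 may share reads with them.

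The study asked which transcripts differ between primary osteosarcomas with and without CD44, a cell surface glycoprotein that binds hyaluronan, in mice that carry a mutated Nf2 allele. Nf2 encodes Merlin, a tumor suppressor that binds the cytoplasmic tail of CD44. RNA of 3 tumors of genotype Cd44+/+; Nf2Δ2/+ (No244, No316 and No368) and 3 tumors of genotype Cd44-/-; Nf2Δ2/+ (No203, No279 and No364) was sequenced, and the background of all 6 mice was a mix of C57BL/6, 129/Sv and FVB. The heterozygous Nf2 mutation was thus shared by both groups, the groups differed in the Cd44 genotype, and ages are not given in the sources used here. The sample labels call the tissue osteosarcoma and the study's methods name tumor tissue, whereas the extraction note of the labels speaks of cell lines.

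The proteins belong to unrelated families. Tspan32 encodes a tetraspanin, a membrane protein that spans the bilayer several times and organizes other membrane proteins into microdomains, and it is known from T cells and platelets. R3hdml encodes a secreted protein of the CAP family, which is named after cysteine-rich secretory proteins, antigen 5 and pathogenesis-related proteins. Grik4 encodes a subunit of kainate receptors, which are glutamate-gated ion channels of neurons, and Celf5 encodes an RNA-binding protein of the CELF family, which is known for splicing control in the brain. Wfdc6a lies in a cluster of genes for small secreted proteins with a WAP (whey acidic protein) domain, many of them made in the male reproductive tract, and 4833422C13Rik is an antisense RNA with no protein and no assigned role.

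Several libraries stood apart. No316 and No368 differed by no more than binomial sampling noise at 87.2% of 16671 genes, against 15.7% to 24.1% for the 14 other pairs of tumors, so their mean stands for a single sample wherever a mean and SD are given. The log2 fold changes and their SE come from a fit that counts No316 and No368 as 2 samples, unless the pair is said to be summed. Mitochondrially encoded genes held 55.2% of the counts of No244 and between 5.94% and 12.5% elsewhere. The summed level of 10 osteoblast markers (Alpl, Col1a1, Ibsp and others) ranged from 33866 to 53064 CPM (read counts scaled to a common library size) in Cd44+/+ tumors and from 3691 CPM in No364 to 84906 CPM in Cd44-/- tumors, and that of 10 hepatocyte markers reached 115010 CPM in No364 against 44.6 to 164.1 CPM in the other 5. All 10 hepatocyte markers had an unadjusted p under 0.05 with the higher fitted level in Cd44-/-, against 6.44% of all genes tested. The large difference was that of No364 alone. The sum in No279 was 65.2 CPM, within the Cd44+/+ range of 44.6 to 107.6 CPM, and No203 lay above that range at 164.1 CPM. Xist, the RNA of the inactive X chromosome, was at 858.9 to 1242 CPM in the 3 Cd44+/+ tumors and in No203, and below 1 CPM in No279 and No364, so that sex and genotype were partly confounded. Where values follow each other for all tumors, their order is No244, No316 and No368 for Cd44+/+ and No203, No279 and No364 for Cd44-/-. Cd44 itself was at 137.3, 243.6 and 240.3 CPM in Cd44+/+ and at 19.2, 15.7 and 61.8 CPM in the Cd44-/- tumors. Its counts in Cd44-/- tumors were lower without being absent, with a log2 fold change of -2.68 (SE 0.65).

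Levels are given as CPM after scaling by TMM, a method that corrects library sizes for differences in RNA composition. Total counts ran from 18076388 to 26954142 per tumor, so that 3 counts, taken as the floor of detection, corresponded to 0.0990 to 0.252 CPM. All 6 genes passed the filter on low counts. In each, every Cd44-/- tumor lay below every Cd44+/+ tumor, which was also the case for 9.57% of the 16839 genes tested. This count was fixed by how the genes were chosen.

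**Figure D1:**
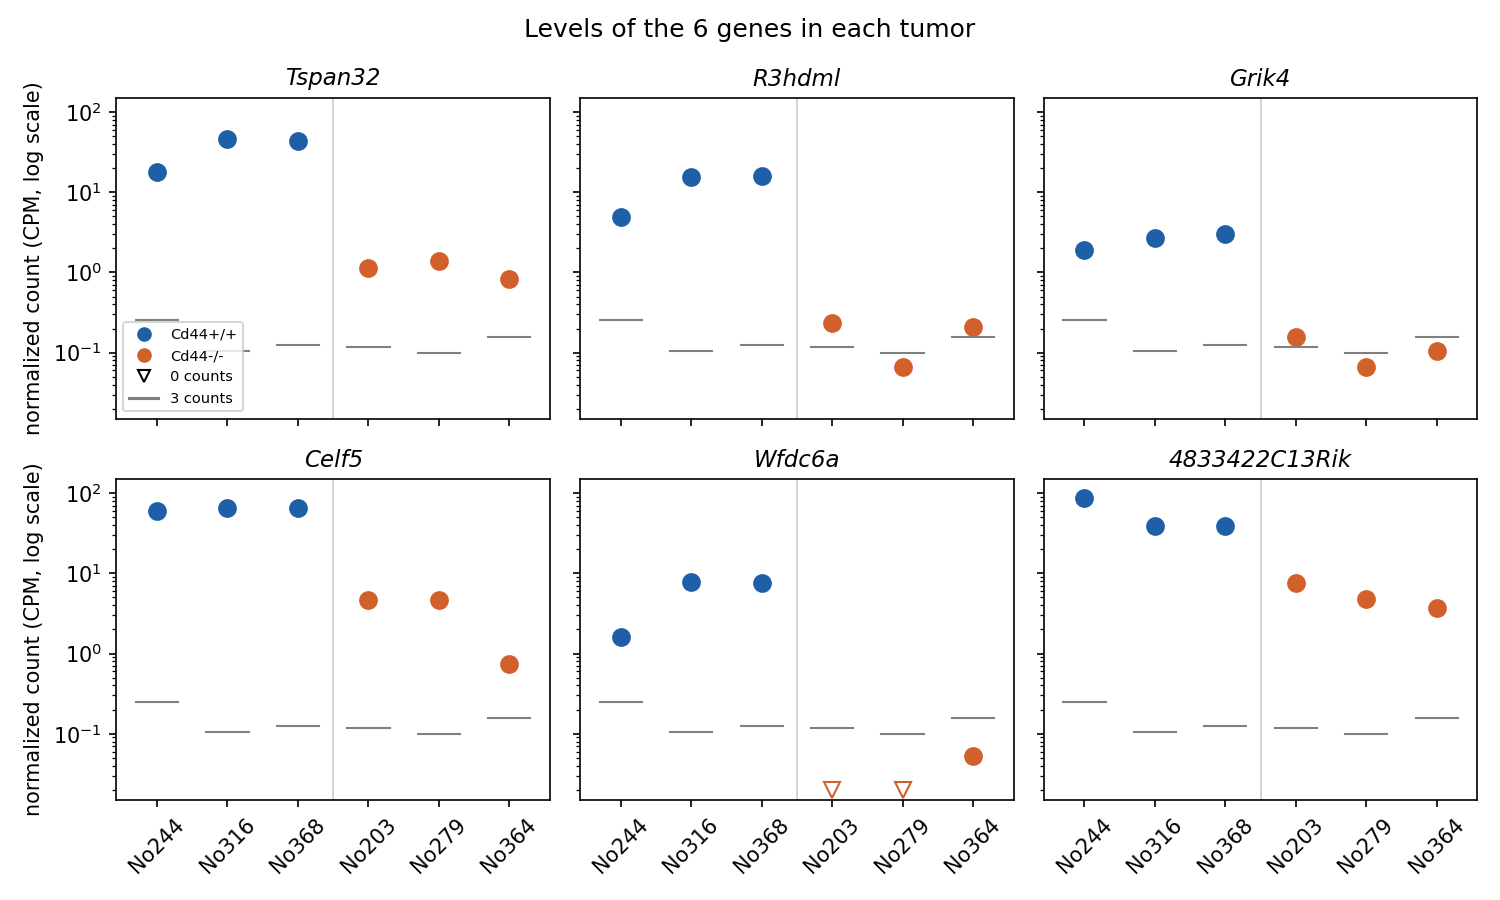
Normalized counts (CPM, log axis) of the 6 genes in each of the 6 tumors, 1 panel per gene, with Cd44+/+ tumors in blue and Cd44-/- tumors in orange. Grey bars mark the level of 3 counts in each library and open triangles mark 0 counts, drawn at the bottom of the panel because 0 has no place on a log axis. The 2 groups do not overlap in any panel, the Cd44-/- points of R3hdml, Grik4 and Wfdc6a sit near or below the level of 3 counts, and No244 is the lowest blue point in 5 panels and the highest for 4833422C13Rik.

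Tspan32 (ENSMUSG00000000244) occupies chr7:143005046-143019644 on the plus strand of GRCm38, a stretch of 14599 bases that lies 33.1 kb from the gene of another tetraspanin, Cd81. It had 214, 1320 and 1033 reads in No244, No316 and No368, and 29, 42 and 16 reads in No203, No279 and No364. In normalized counts this was 18.0, 45.9 and 43.4 CPM against 1.15, 1.39 and 0.837 CPM. The 3 Cd44-/- tumors lay close together, whereas No244 had less than the other Cd44+/+ tumors and still 12.97 times the level of No279, the highest Cd44-/- tumor. The means were 31.3 ± 18.8 CPM (SD, n = 2) and 1.12 ± 0.276 CPM (SD, n = 3), and the log2 fold change in the edgeR fit was -4.98 (SE 0.56).

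R3hdml (ENSMUSG00000078949, chr2:163492318-163502612, plus strand) was counted at 58, 450 and 383 reads in No244, No316 and No368. Only 6, 2 and 4 reads fell on it in No203, No279 and No364. These counts corresponded to 4.87, 15.6 and 16.1 CPM and to 0.238, 0.0660 and 0.209 CPM. In No279 the gene was under the floor of 3 counts and in the other Cd44-/- tumors just above it, so that their order among themselves cannot be read. The group means were 10.4 ± 7.77 CPM (SD, n = 2) and 0.171 ± 0.0921 CPM (SD, n = 3), with a log2 fold change of -6.14 (SE 0.86). The pooled counts gave a ratio of Cd44+/+ to Cd44-/- of 85.9, with a 95% exact interval of 48.9 to 166.9 that covers counting error only. This interval, like those for Grik4 and Wfdc6a, pools the reads of 3 tumors a group, the pair No316 and No368 among them, for a gene chosen for this difference.

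Grik4 (ENSMUSG00000032017) spans 426359 bases at chr9:42518135-42944493 on the minus strand, the longest of the 6 genes, and had the lowest level per length, 0.403 CPM per kb of exon over the Cd44+/+ tumors. It had 23, 78 and 72 reads in No244, No316 and No368 and 4, 2 and 2 reads in No203, No279 and No364. That is 1.93, 2.71 and 3.02 CPM against 0.159, 0.0660 and 0.105 CPM. In 2 of the Cd44-/- tumors it was under the floor, and the Cd44+/+ tumors were nearer to each other than for Tspan32 or R3hdml. The means were 2.40 ± 0.661 CPM (SD, n = 2) and 0.110 ± 0.0465 CPM (SD, n = 3). The log2 fold change was -4.49 (SE 0.68) and the pooled counts gave a ratio of 25.02 (95% exact interval 12.4 to 58.9, counting error only).

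Celf5 (ENSMUSG00000034818, chr10:81459227-81482709, minus strand) was the most even gene among the Cd44+/+ tumors, at 59.2, 65.2 and 64.5 CPM in No244, No316 and No368 from 704, 1875 and 1537 reads. In No203, No279 and No364 it had 117, 141 and 14 reads, or 4.64, 4.66 and 0.733 CPM. No203 and No279 were alike, and No364, the tumor rich in hepatocyte transcripts, lay below both. The lowest Cd44+/+ value was 12.7 times the highest Cd44-/- value. The means were 62.0 ± 4.03 CPM (SD, n = 2) and 3.34 ± 2.26 CPM (SD, n = 3), and the log2 fold change was -4.23 (SE 0.73).

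Wfdc6a (ENSMUSG00000074595, chr2:164579519-164585447, minus strand) had 19, 223 and 182 reads in No244, No316 and No368, and 0, 0 and 1 reads in No203, No279 and No364. The Cd44+/+ levels were 1.597, 7.75 and 7.64 CPM, so that No244 lay well below the other 2 Cd44+/+ tumors. The gene was at or under the floor in all 3 Cd44-/- tumors, where the single read in No364 stood for 0.0523 CPM. With 424 reads against 1 read, the pooled ratio was 490.6 with a 95% exact interval of 87.6 to 19422 that covers counting error only. The fitted log2 fold change of -8.17 (SE 1.34) depends on the small number that the fit adds to a count of 0. The mean over the Cd44+/+ tumors was 4.65 ± 4.31 CPM (SD, n = 2).

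4833422C13Rik (ENSMUSG00000074782) runs from chr13:91701665 to position 91741872 on the minus strand and is annotated as an antisense RNA. No244, No316 and No368 had 1028, 1119 and 922 reads, or 86.4, 38.9 and 38.7 CPM. It was counted at 190, 143 and 70 reads in No203, No279 and No364, which is 7.53, 4.72 and 3.66 CPM. This was the only one of the 6 that was highest in No244, where it was more than 2 times the other Cd44+/+ tumors, and the gap between the groups was the smallest, with 5.14 times between the lowest Cd44+/+ and the highest Cd44-/- tumor. The means were 62.6 ± 33.6 CPM (SD, n = 2) and 5.31 ± 2.00 CPM (SD, n = 3), and the log2 fold change was -3.36 (SE 0.52).

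The p-values that chose the genes came from edgeR's quasi-likelihood test across 16839 genes and ran from 5.77e-05 for Tspan32 to 0.000766 for Celf5. By p they held places 2 to 13 among all genes tested, and places 1 to 10 among those lower in Cd44-/-. The 4 genes of these 10 that are not in the set are Wnt4, Rpl5-ps1, Mid1 and Appl2. The next gene down was Porcn, with an edgeR p of 0.000796 close to the 0.000766 of Celf5. Its log2 fold change was -2.95 (SE 0.51), beside -4.23 for Celf5 and -2.15 for Appl2, which ranked above Celf5. After Benjamini-Hochberg adjustment each of the 6 had an adjusted p of 0.452. edgeR called 0 genes of the 16839 at an adjusted p under 0.05 (percent called 0), with 1810 at an unadjusted p under 0.05, while DESeq2 called 419 of 17952 and limma-voom called 0. The study itself used DESeq2 at an adjusted p under 0.05 and reported more genes than these 419.

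**Figure D2:**
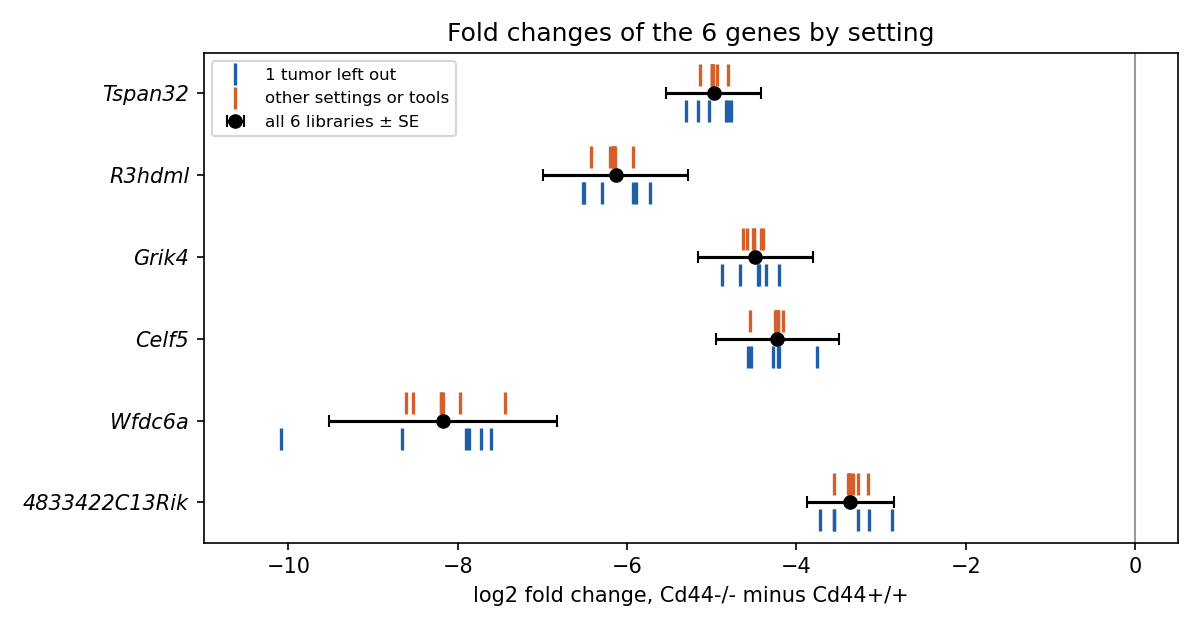
Log2 fold changes (Cd44-/- minus Cd44+/+, horizontal axis) of the 6 genes, with the edgeR estimate on all 6 libraries as a black point with its standard error. Blue ticks are fits with 1 tumor left out and orange ticks are fits with another normalization, filter or tool. Their side of 0 is fixed by the choice of the genes, and those of Wfdc6a spread the most, from -10.1 to -7.44.

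Values with 1 tumor left out come from the contrast that chose the genes and, without No316 or No368, from a fit that still holds the other of that pair, so they describe the spread of the estimates only. Without each tumor in turn, the log2 fold change of Tspan32 lay between -5.31 and -4.77, that of R3hdml between -6.53 and -5.73 and that of Grik4 between -4.88 and -4.21. Celf5 lay between -4.57 and -3.75, Wfdc6a between -10.1 and -7.60 and 4833422C13Rik between -3.73 and -2.87. The part of sex in the levels was not tested. The 6 genes resembled each other over the 6 tumors, with Pearson's r of log2 CPM from 0.856 to 0.993 over 15 pairs and a median of 0.942. They were chosen on the same contrast, which fixes part of this likeness.

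The genes whose pattern over the 6 tumors came closest to each of the set differed widely in size, with log2 fold changes outside the set from -4.92 for Gm26634 to -0.48 for Rnf24. For Tspan32 they were Kcnj8, Acss1 and Asxl1, with r from 0.995 to 0.996. Asxl1, a chromatin regulator, was at 81.3, 96.8 and 95.8 CPM in Cd44+/+ and at 46.5, 51.4 and 49.1 CPM in the Cd44-/- tumors. The best match of Grik4 was Mkrn1 (r = 0.999), a ubiquitin ligase gene with a log2 fold change of -0.50 (SE 0.27), followed by R3hdml and Rnf24. R3hdml had Rpl5-ps1, Grik4 and Ubr1 (r from 0.992 to 0.993), Celf5 had Akr1b10, Klhdc1 and Plxna2 (r from 0.995 to 0.999) and Wfdc6a had A230087F16Rik, Rexo1 and Zbtb11 (r from 0.992 to 0.996). For 4833422C13Rik, the closest were AC117700.1, Ift140 and Gm26634 (r from 0.996 to 0.999). With 6 points in non-overlapping groups, such values are a description of the genotype step and of the order of No244 and the pair No316 and No368.

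Markers of the cell types in which these genes are known were read beside them. Tspan32 is known from platelets and T cells. The summed level of 10 platelet and megakaryocyte markers was 96.3 to 143.9 CPM in Cd44+/+ and 16.3 to 60.2 CPM in Cd44-/- tumors, most of it from Gp1bb in every tumor but No364, whereas Pf4 was at 0.672 CPM in No244, where Tspan32 was at 18.0 CPM. Ppbp was higher in 2 Cd44-/- tumors, at 0, 2.09 and 2.10 CPM in Cd44+/+ and at 0.198, 16.3 and 4.08 CPM in Cd44-/-. Itga2b had overlapping groups. None of the 5 platelet markers that passed the filter on low counts had an unadjusted p under 0.05. Over all genes tested, 4.31% were lower and 6.44% higher at this threshold. The median log2 fold change of these 5 markers was -0.084. The 10 T cell markers summed to 6.84 to 30.8 CPM in Cd44+/+ and 7.81 to 21.1 CPM in Cd44-/- tumors, which overlapped. For Grik4 and Celf5, the 10 neuron markers summed to 35.6 to 62.9 CPM against 18.0 to 33.6 CPM. Single genes carried these sums in places, with Camk2a at 27.1 of the 35.6 CPM of No244 and Syt1 at 27.3 of the 33.6 CPM of No364. Syt1 went the other way, at 0, 0.0348 and 0 CPM in Cd44+/+ and at 1.27, 0 and 27.3 CPM in the Cd44-/- tumors. Snap25 had 0 reads in every tumor but No244, which had 5. Of the 7 neuron markers tested, 1 was lower and 0 were higher at an unadjusted p under 0.05, against 4.31% and 6.44% of all genes tested. The lower one was Camk2a, at 27.1, 34.7 and 34.6 CPM in Cd44+/+ and at 11.1, 7.53 and 0.942 CPM in the Cd44-/- tumors. The Schwann cell list stood at 93.4 to 120.9 CPM against 124.9 to 165.0 CPM, where Erbb3 alone held 142.2 of the 165.0 CPM of No364. The B cell list stood at 3.23 to 9.66 CPM against 2.54 to 10.5 CPM and the macrophage list at 484.2 to 1363 CPM against 534.1 to 1018 CPM. The part of such cells in the levels of the 6 genes was not tested, and in bulk RNA fewer cells of a type cannot be told apart from less RNA per cell. The epididymis list, read for Wfdc6a, had 5 of 10 markers at 0 in all tumors (Adam7, Lcn5, Lcn9, Spint4 and Eppin). It summed to at most 0.0840 CPM in the Cd44+/+ tumors and to 0.0397 to 0.792 CPM in the Cd44-/- tumors. The highest sum was that of No279, where Rnase10 alone was at 0.759 CPM.

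Reads of some of the 6 could have come from another gene. The libraries were stranded and read from 1 end, but the strand setting and the handling of reads that match more than 1 place are not given in the sources used here. Wfdc6a was the most exposed. Of its 817 stretches of 51 bases, the read length, 380 (46.5%) also occur in the transcript of Wfdc6b, a related gene 28.1 kb away at chr2:164613522-164618212 on the plus strand. Their coding sequences pair at 408 positions and 350 of these hold the same base. The first and second coding exons are shown in lower case, 5′ to 3′ along each gene, with capitals at bases that differ between the genes or have no partner; the first is almost alike apart from a leading stretch of Wfdc6b, and the second differs at 30 paired positions. They were read from the GENCODE M21 transcripts of GRCm38.
Wfdc6a exon 1, chr2:164585000-164585090, minus strand: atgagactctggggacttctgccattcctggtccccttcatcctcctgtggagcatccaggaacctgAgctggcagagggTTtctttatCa
Wfdc6b exon 1, chr2:164613753-164613873, plus strand: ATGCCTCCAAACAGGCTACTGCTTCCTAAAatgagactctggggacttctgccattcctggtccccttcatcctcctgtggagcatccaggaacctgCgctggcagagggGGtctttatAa
Wfdc6a exon 2, chr2:164583827-164583958, minus strand: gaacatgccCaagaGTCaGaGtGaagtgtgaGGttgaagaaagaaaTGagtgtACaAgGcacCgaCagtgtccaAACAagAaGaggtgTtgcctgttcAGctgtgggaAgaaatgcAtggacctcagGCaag
Wfdc6b exon 2, chr2:164614891-164615025, plus strand: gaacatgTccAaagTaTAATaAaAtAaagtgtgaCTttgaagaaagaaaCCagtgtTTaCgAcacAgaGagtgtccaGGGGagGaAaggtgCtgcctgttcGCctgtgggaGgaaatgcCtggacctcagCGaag

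The count of Wfdc6b was 19, 1 and 97 reads in No244, No316 and No368 and 0, 0 and 1 reads in No203, No279 and No364, and the gene did not pass the filter on low counts. No316 and No368 had nearly the same level of Wfdc6a, with a CPM ratio of 1.01, yet their counts of Wfdc6b were 1 and 97. The sum of both genes was 3.19, 7.79 and 11.7 CPM in the Cd44+/+ tumors and 0, 0 and 0.105 CPM in the Cd44-/- tumors, where it came to at most 2 reads. The groups were separated for the sum as for Wfdc6a alone, while the split between both copies is uncertain.

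**Figure D3:**
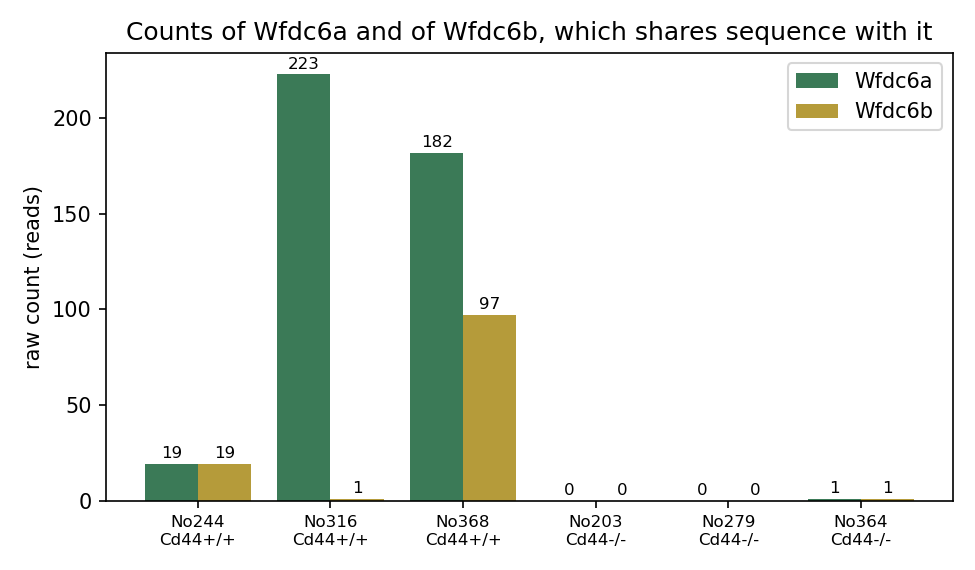
Raw read counts (vertical axis, from 0) of Wfdc6a in green and Wfdc6b in ochre in each tumor, with the count above each bar. Both genes are at 0 or 1 reads in the 3 Cd44-/- tumors, and No316 and No368 have similar Wfdc6a counts (223 and 182) but 1 and 97 reads of Wfdc6b.

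4833422C13Rik shared 30.9% of its 51-base stretches with genes on the opposite strand. Its end overlaps 1765 exon bases of Ssbp2, which encodes a single-stranded DNA-binding protein, and its start overlaps 149 exon bases of Acot12, a liver acyl-CoA thioesterase gene. Ssbp2 was at 82.6, 32.2 and 32.1 CPM in Cd44+/+ and at 7.18, 16.5 and 2.72 CPM in the Cd44-/- tumors. Like 4833422C13Rik it was highest in No244 and lower in every Cd44-/- tumor, with a log2 fold change of -2.47 (SE 0.76, edgeR adjusted p 0.452). Acot12 went another way, at 6.05, 2.19 and 2.06 CPM against 0.595, 0.429 and 89.6 CPM, with its highest value in No364. Without the strand setting, reads in the shared exon bases cannot be assigned to either strand.

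Celf5 shares 7.61% of its stretches, nearly all with the antisense gene Gm16105, which overlaps 543 of its exon bases. Gm16105 had 18, 207 and 176 reads in No244, No316 and No368 and 3, 26 and 1 reads in No203, No279 and No364, a log2 fold change of -3.91 (SE 1.21, edgeR adjusted p 0.452). The antisense gene was thus low in No244, in which Celf5 was not. Tspan32 shares 3.77% of its stretches, mostly with Tspan32os, which had at most 5 reads in any tumor, and Grik4 shares 0.305%. R3hdml shares none of its 1044 stretches, and Hnf4aos, which lies across it on the other strand without touching an exon, had at most 2 reads in the Cd44+/+ tumors and 14 in No364.

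The genes next to the 6 on their chromosomes were measured to see whether the low levels reached beyond them. Of 36 neighbours, the 3 nearest tested genes by start position on each side, 4 (11.1%) were lower and 3 (8.33%) were higher in Cd44-/- tumors at an unadjusted p under 0.05, against 4.31% and 6.44% of all genes tested. This fit counts No316 and No368 as 2 samples. With the pair summed, 4 of these 7 had an unadjusted p under 0.05 while Sc5d, Oaf and Wfdc3 did not (unadjusted p 0.0555, 0.0847 and 0.0886), and over all genes the number went from 1810 of 16839 to 761 of 17844. By adjusted p, edgeR and limma-voom called 0 of the 36 and DESeq2 called 1, Gm16105. Of the 36, 18 had a log2 fold change below 0, against 44.9% of all genes. Every Cd44-/- tumor lay below every Cd44+/+ tumor for 6 neighbours and above for 2, against 9.57% and 9.49% of all genes. The median log2 fold change of the neighbours was -0.0010, and that of all genes tested was 0.11. Of the 4 lower ones, Gm16105 and Ssbp2 are the antisense partners above, whose counts may share reads with Celf5 and 4833422C13Rik. The others, Dbndd2 and Gm20458, overlap each other beside Wfdc6a.

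Dbndd2, which encodes a dysbindin domain protein 86.2 kb from Wfdc6a, was at 93.8, 78.7 and 76.8 CPM in Cd44+/+ and at 40.6, 13.4 and 30.8 CPM in the Cd44-/- tumors. Its log2 fold change was -1.56 (SE 0.46) beside -8.17 for Wfdc6a. On either side of Tspan32, Igf2, the imprinted growth factor gene, had a log2 fold change of 0.41 (SE 1.37) and Cd81 one of 0.35 (SE 0.59). Cd81 lay at 113.9, 240.4 and 241.5 CPM in Cd44+/+ and at 180.3, 145.2 and 433.1 CPM in the Cd44-/- tumors, so that its groups overlapped. All 6 neighbours of R3hdml had overlapping groups. Around Grik4, Sc5d, a cholesterol synthesis gene, was higher with a log2 fold change of 4.41 (SE 1.48), a value that rested on 592.9 CPM in No364 and was 1.002 without that tumor. Oaf, also near Grik4, had a log2 fold change of 2.11 (SE 0.76). The unadjusted p rose above 0.05 for Ssbp2 without No244, for Sc5d without No244, No316, No368 or No364, and for Oaf without No316, No368, No279 or No364.

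**Figure D4:**
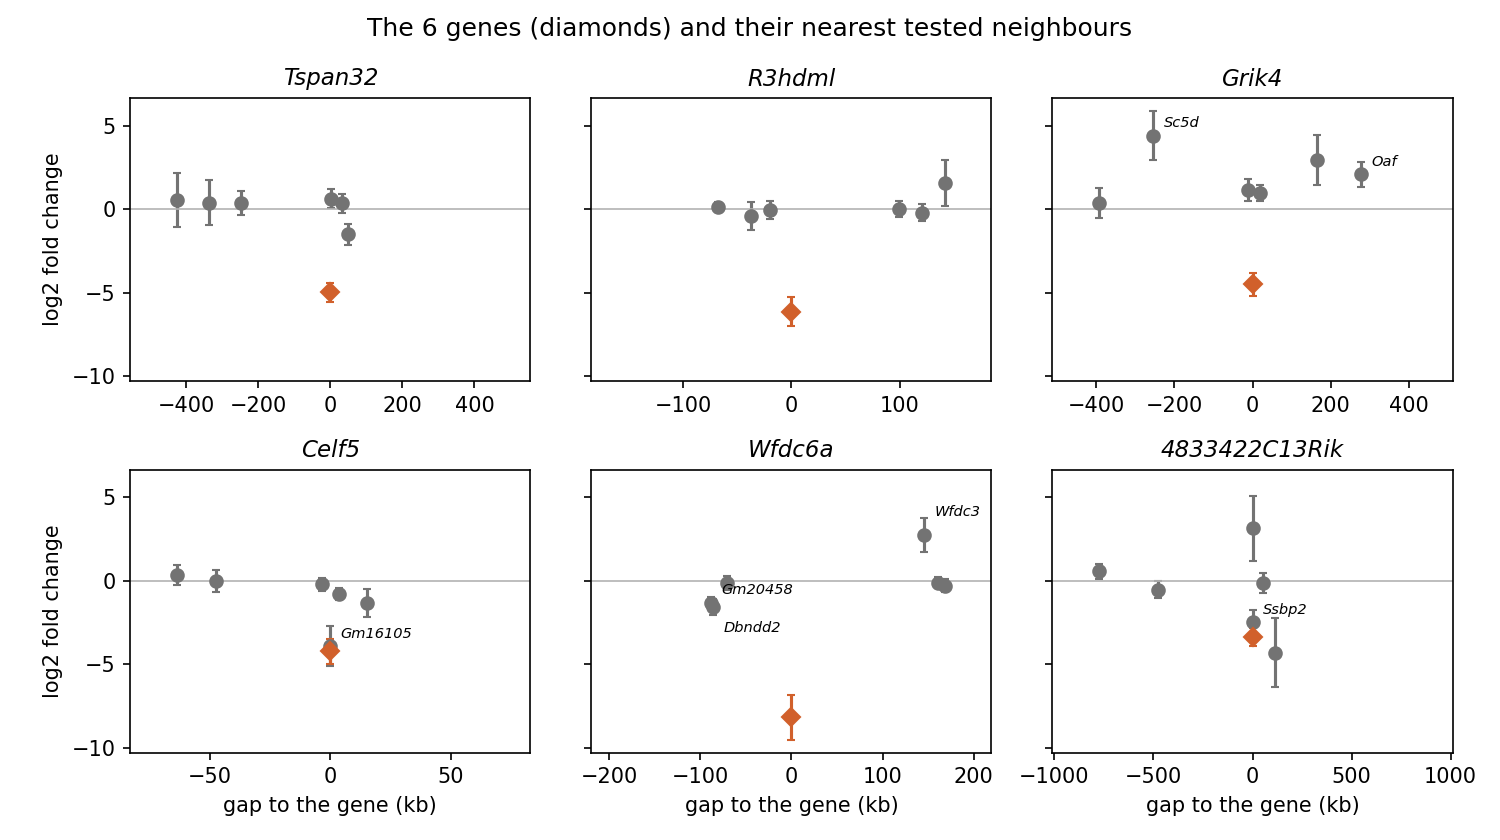
Log2 fold changes (Cd44-/- minus Cd44+/+) with standard errors of the 6 genes (orange diamonds at 0) and of the 3 nearest tested genes on each side (grey), against the gap in kb, negative toward the chromosome start. Names mark neighbours with an unadjusted p under 0.05; Gm16105 and Ssbp2, which overlap Celf5 and 4833422C13Rik, sit beside the diamonds. Those of R3hdml run from -0.40 for Gdap1l1 to 1.59 (SE 1.38) for 0610039K10Rik, and none of them has an unadjusted p under 0.05.

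R3hdml and Wfdc6a are both on chromosome 2, 1.08 Mb apart, and R3hdml is 60.6 Mb from Cd44 on the same chromosome. Between R3hdml and Wfdc6a, 19 genes were tested, of which 2 (10.5%) were lower and 1 (5.26%) was higher at an unadjusted p under 0.05, against 4.31% and 6.44% of all genes, with a median log2 fold change of 0.0036. The 2 lower genes are Dbndd2 and Gm20458, which overlap each other and were already counted among the neighbours of Wfdc6a.

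The relatives of the 6 were read in the same fit. In the 5 family lists, 50 genes other than the 6 were tested, and 5 of them (10%) were lower and 4 (8%) higher in Cd44-/- tumors at an unadjusted p under 0.05, against 4.31% and 6.44% of all genes tested. With No316 and No368 summed as 1 sample, 4 of these 9 had an unadjusted p under 0.05, namely Rom1, Grik5, Wfdc1 and Wfikkn1. By adjusted p, edgeR and limma-voom called 0 of the 50 and DESeq2 called 2, Wfdc1 and Wfikkn1, both lower, where it called 1.12% of all its genes lower. The median log2 fold change of the 50 was -0.034.

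Among tetraspanins, 26 relatives of Tspan32 were tested. Tspan13 was lower with a log2 fold change of -1.23 (SE 0.43), at 12.7, 14.1 and 12.7 CPM in Cd44+/+ and at 7.18, 5.88 and 3.82 CPM in the Cd44-/- tumors. Rom1, known from photoreceptor discs, was lower with a log2 fold change of -2.41 (SE 0.81). The tetraspanin with the highest level per length, Cd63, a protein of late endosomes and exosomes, was at 708.3, 803.6 and 809.8 CPM against 1174, 474.6 and 165.7 CPM, with overlapping groups. Tspan13 lost its unadjusted p under 0.05 without No316 or No368, and Rom1 lost it without No244, No279 or No364.

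Of the ionotropic glutamate receptors, 7 relatives of Grik4 were tested, of which 1 was lower and 0 were higher at an unadjusted p under 0.05. The shares of all genes tested were 4.31% and 6.44%. Grik5, the other high-affinity kainate receptor subunit and the list's highest per length, was lower as well. It was at 64.7, 20.2 and 20.7 CPM in Cd44+/+ and at 10.7, 5.88 and 8.11 CPM in the Cd44-/- tumors, so that the groups did not overlap. Its log2 fold change was -2.09 (SE 0.59, edgeR adjusted p 0.452), and the unadjusted p stayed under 0.05 in 14 of 14 alternatives. The kainate receptor genes Grik1, Grik2 and Grik3, with which these subunits form channels, did not pass the filter on low counts. Grik1 had 1 read in No279 and 0 elsewhere, Grik2 had 0, 2 and 0 reads in Cd44+/+ and 6, 30 and 0 in Cd44-/- tumors, and Grik3 had 0, 6 and 7 against 4, 0 and 2.

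The WAP-domain list had genes on both sides. Of 6 relatives of Wfdc6a tested, 2 were lower and 3 higher at an unadjusted edgeR p under 0.05, against 4.31% and 6.44% of all genes tested. With No316 and No368 summed as 1 sample, the 3 higher ones did not reach it. Their unadjusted edgeR p was then 0.0886 for Wfdc3, 0.0668 for Wfdc21 and 0.0725 for Slpi. Wfdc1, a gene for a secreted growth inhibitor, was at 7.06, 23.4 and 26.3 CPM in Cd44+/+ and at 2.02, 0.528 and 1.41 CPM in the Cd44-/- tumors. As with Wfdc6a, No244 was the lowest Cd44+/+ tumor, and the log2 fold change was -3.84 (SE 0.78, edgeR adjusted p 0.452). Wfikkn1, whose product binds myostatin, had a log2 fold change of -3.26 (SE 0.73), and both kept an unadjusted p under 0.05 under every alternative run. The 3 higher genes were less even. Wfdc21, the list's highest per length, stood at 194.3 CPM in No364 and at 0.429 to 1.35 CPM elsewhere, and its log2 fold change went from 6.67 to 0.47 without No364. Slpi, a protease inhibitor of mucosal secretions, stood at 209.0 CPM in No279 against 7.93 to 34.8 CPM in the other tumors, with a log2 fold change of 3.12 (SE 1.10). Wfdc3, which also neighbours Wfdc6a, had a log2 fold change of 2.74 (SE 1.03). Without No244, No316 or No368, none of these 3 kept an unadjusted p under 0.05, and neither did Wfdc3 without No279 or No364 or Slpi without No279.

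The remaining lists gave little. Of 6 relatives of R3hdml, Glipr2 was higher, at 2.60, 6.67 and 6.68 CPM in Cd44+/+ and at 6.74, 37.7 and 21.6 CPM in the Cd44-/- tumors. Its log2 fold change was 2.04 (SE 0.73), and its unadjusted p rose above 0.05 without No244, No316, No368 or No279. Glipr1, the highest of that list per length, had a log2 fold change of 0.72 (SE 0.58). No relative of Celf5 among 5 tested had an unadjusted p under 0.05. Celf1, the broadly expressed member of the family, was at 83.3, 95.5 and 96.1 CPM in Cd44+/+ and at 88.4, 87.8 and 113.9 CPM in the Cd44-/- tumors, a log2 fold change of 0.08 (SE 0.31). As a rough frame for 4833422C13Rik, 548 genes with a symbol ending in Rik were tested, of which 26 (4.74%) were lower and 14 (2.55%) higher, against the same 4.31% and 6.44% of all genes.

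**Figure D5:**
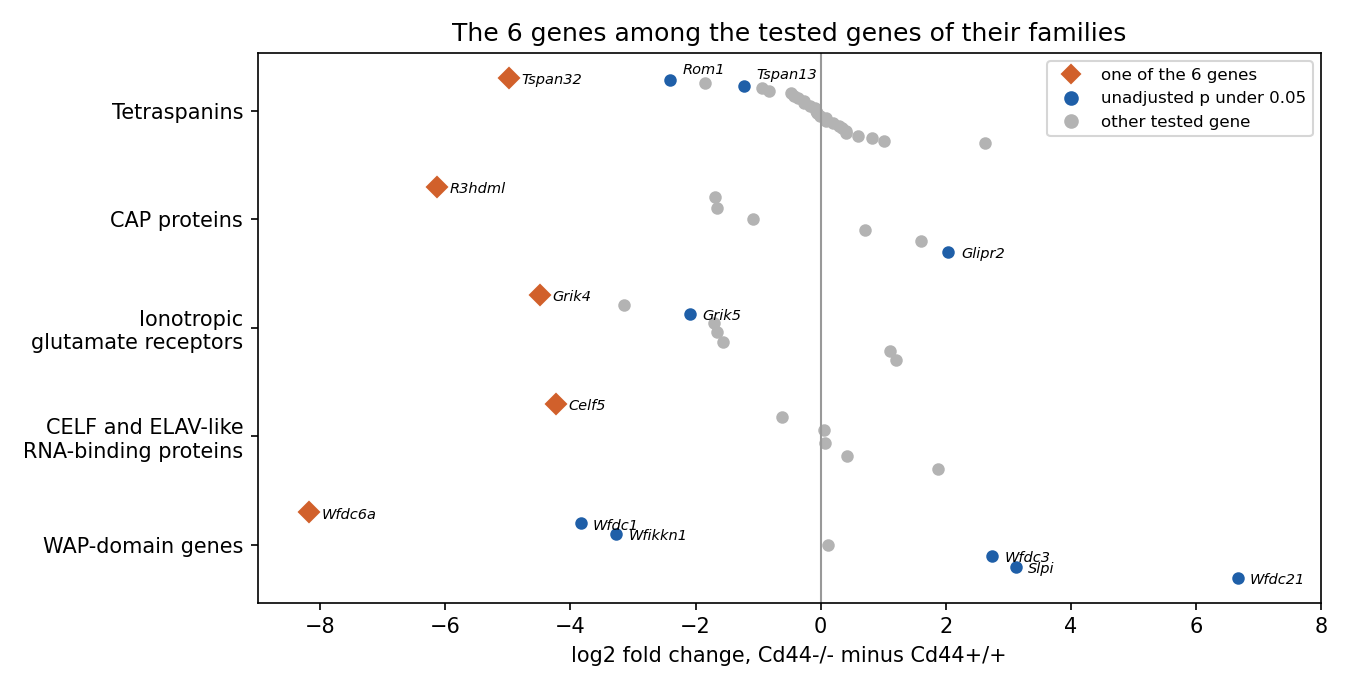
Log2 fold changes (Cd44-/- minus Cd44+/+) of the tested genes of 5 families. Orange diamonds are the chosen genes except 4833422C13Rik, which is in no family list. Relatives with an unadjusted p under 0.05 are in blue and other relatives in grey. Points are spread vertically within a family for legibility only; 5 blue points lie below 0 and 4 above.

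Promoters were read for 2 motifs that the study looked for in the multidrug resistance genes Abcb1a and Abcb1b, over a longer upstream stretch than the windows used here. These were the CD44 intracellular domain response element (CIRE, CCTGCG) and the TPA response element (TRE, TGACTCA or TGAGTCA). RefSeq windows of GRCm38.p6, from 250 bases before to 50 after an annotated start, were found for 6 of 6 genes, 11 windows in all, and both strands were read. A CIRE was in 1 of the 11 windows, the fourth of 5 windows of Celf5, against 17.3% of 32851 windows in the genome, and a TRE was in 0 of 11, against 5.2%. The windows are not separate units, since 5 are of Celf5 and those of Wfdc6a overlap. By gene, a CIRE was found for 1 of 6 and a TRE for 0 of 6, against 19.2% and 5.95% of 27025 genes. These letters are short and their presence or absence in such a window is a description of the sequence only. The windows had little in common otherwise, with GC contents from 42.0% for 4833422C13Rik to 70.0% for Grik4 (median of all windows 52.67%) and 2 to 42 CpG dinucleotides. Shown are the Celf5 window with its CIRE in capitals and the 2 ends of the GC range, for which no motif letters were found, all 5′ to 3′ along the gene.
Celf5 window 4, chr10:81473334-81473633, minus strand: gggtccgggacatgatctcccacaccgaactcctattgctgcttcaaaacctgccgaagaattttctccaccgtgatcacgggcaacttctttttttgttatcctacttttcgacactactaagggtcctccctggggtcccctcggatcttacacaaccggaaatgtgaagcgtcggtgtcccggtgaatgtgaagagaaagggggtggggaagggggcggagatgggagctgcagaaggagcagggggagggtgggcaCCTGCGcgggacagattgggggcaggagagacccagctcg
Grik4, chr9:42944322-42944621, minus strand: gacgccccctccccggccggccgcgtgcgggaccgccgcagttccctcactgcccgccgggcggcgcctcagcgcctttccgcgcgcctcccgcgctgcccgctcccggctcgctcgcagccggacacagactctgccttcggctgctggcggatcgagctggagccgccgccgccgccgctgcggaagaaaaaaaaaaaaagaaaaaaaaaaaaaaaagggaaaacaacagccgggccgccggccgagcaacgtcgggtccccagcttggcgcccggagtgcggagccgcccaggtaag
4833422C13Rik, chr13:91741823-91742122, minus strand: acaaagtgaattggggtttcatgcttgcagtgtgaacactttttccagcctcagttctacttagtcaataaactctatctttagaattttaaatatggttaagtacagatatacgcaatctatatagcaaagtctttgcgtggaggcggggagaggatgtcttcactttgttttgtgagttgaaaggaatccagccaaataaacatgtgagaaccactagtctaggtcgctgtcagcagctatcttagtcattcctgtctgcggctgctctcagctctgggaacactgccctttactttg

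The Grik4 window is a CpG-rich start of the kind usual for broadly used promoters, while the 4833422C13Rik window is AT-rich. The Tspan32 window held 2 CpG dinucleotides at 56.7% GC.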

How the data were processed

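The authors deposited a table of raw counts of reads per Ensembl gene, 1 column per tumor. By the study's methods and the submitters' processing notes, stranded mRNA libraries were aligned to GRCm38 with HISAT2 2.0.2 and counted with featureCounts (Subread 2.0.0). Symbols and coordinates come from GENCODE M21 (37693 of 39179 identifiers matched).

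The genotype comparison was a quasi-likelihood fit of all 6 libraries in edgeR 4.0.16 (R 4.3.3), with TMM scaling, filterByExpr at its defaults, no covariate and Benjamini-Hochberg adjustment. The standard error (SE) of an edgeR log2 fold change was calculated back from the test, as its absolute value divided by the square root of the F statistic. DESeq2 1.42.0, limma-voom (limma 3.58.1), other normalizations and filters, the pair No316 and No368 summed, and leaving out each tumor were alternatives. The steps were tested on simulated counts. The labels give no batch. The p-values measure the spread between these libraries only, with No316 and No368 entered as 2 samples wherever they were not summed or left out.

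The 6 genes and all lists were chosen with earlier results of these data known. Genes named beside the 6 are family members with an unadjusted p under 0.05 and the highest per length, the 3 nearest tested neighbours on each side, the 3 genes with the highest r, and marker genes. Porcn and the 4 unlisted genes above it, and the genes that overlap or resemble the 6, were named after their values were seen.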

Additional observations from a re-analysis of the deposited data

How the results depend on the processing

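The 6 log2 fold changes were below 0 in all 81 fits run across alternatives, a direction fixed by how the genes were chosen, and 6 of these fits, all by DESeq2, had an adjusted p under 0.05. DESeq2 gave log2 fold changes of -5.00 for Tspan32, -6.21 for R3hdml, -4.58 for Grik4, -4.24 for Celf5, -8.62 for Wfdc6a and -3.38 for 4833422C13Rik, with adjusted p from 9.65e-13 to 3.27e-05, whereas the other alternatives gave adjusted p from 0.127 to 0.818; the cause was not tested. Of 17952 genes with an adjusted p, DESeq2 called 201 (1.12%) lower and 218 (1.21%) higher in Cd44-/-, 419 in all, where edgeR called 0. DESeq2 counted No316 and No368 as 2 samples. The 6 genes were chosen on this same contrast, so their DESeq2 adjusted p are a description of chosen genes only. R3hdml, Grik4 and Wfdc6a could not be fitted with at least 10 counts in every tumor. The 725 genes lower at an unadjusted p under 0.05 became 380 with library size alone, 1152 by DESeq2, 437 with No316 and No368 summed and 428 to 1365 with 1 tumor left out. The 1085 higher genes became 1702 with no low-count filter, 591 by limma-voom, 324 with the pair summed and 335 to 1720 with 1 tumor left out. Summing the pair lowered the 9 family genes and the 7 neighbours to 4 each, and leaving out 1 tumor gave 4 to 15 family genes and 4 to 9 neighbours; fewer samples enter these fits. The lowest of these counts came without No316 or No368 and the highest without No203. No paired analysis was possible because the groups share no replicate numbers. Depth limits R3hdml, Grik4 and Wfdc6a, whose Cd44-/- levels rest on 6 reads or fewer per tumor.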
